A study of Mus musculus with 19 samples.

Results

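CBFA2T2 peaks that were shared between cells with wild-type and with mutant histone H3.3, and that lay at the end of a single protein-coding gene, formed a set of 3039 regions. They were 3039 of the 5496 H3.3WT peaks that overlapped an H3.3K27M peak. The H3.3WT list held 6920 peaks in all, and 8272 were called for H3.3K27M. The cells were NE-4C, a mouse neural stem cell line of brain origin that lacks p53 and in which H3f3a, 1 of the genes for histone H3.3, had been knocked out. Onto this common background, HA-tagged wild-type H3.3 was stably expressed in the H3.3WT cells and HA-tagged H3.3K27M, with methionine in place of lysine 27, in the H3.3K27M cells. The labels give neither the promoter of these transgenes nor whether a line was a single clone. Chromatin was precipitated with an antibody against CBFA2T2 (Bethyl) in 1 library per genotype. Of 19 described libraries, these 2 had peak lists that were used. The CBFA2T2 library of Cbfa2t2 knockout cells, which would show what the antibody brings down without its target, was not analysed here, nor were the inputs and the histone libraries. RNA was not measured, so the neural stem cell label could not be checked by expression. With 1 library per genotype and peaks that are no replicates of a condition, no test was made, and differences between the libraries have no replicate check.

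CBFA2T2, also named MTGR1, belongs to the MTG (ETO) family of corepressors. These proteins do not bind DNA themselves: they are brought to chromatin by transcription factors and in turn bring NCoR and histone deacetylases. The K27M mutation of H3.3 is known from diffuse midline glioma, where it lowers H3K27 methylation by Polycomb repressive complex PRC2. A promoter is the DNA around the start of transcription, where the sequence motifs of the factors that recruit polymerase and cofactors are concentrated.

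A region was chosen by being called as a peak in both lists, with an overlap of at least 1 bp, and by its H3.3WT summit, the point of highest signal, lying within 1 kb of an annotated end of exactly 1 protein-coding gene of RefSeq. Being shared, the nearness to a gene end and a fold above the caller's limit were thus fixed by the choice and are described without support from them. The 3039 regions fell at 3016 of 21887 protein-coding genes, or 13.8%, which is the background for every gene group below. Another 967 shared peaks reached the ends of several genes, 806 lay inside a gene and 684 were intergenic. Srsf1 and Sft2d3, each with the summit 1000 bp from the end, and Ccdc17, at 996 bp, were the last regions inside the limit, with folds of 8.47, 5.29 and 5.53 in H3.3WT. Jund at 1002 bp, Zfp959 at 1009 bp and Colgalt1 at 1012 bp were the first outside, with 6.93, 12.8 and 9.73 fold.

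The sequence under the strongest regions is shown first, since a short element recurred in it. Rank by fold was summed over both lists, and the 6 best regions whose summit fell in the RefSeq promoter window, 250 bases before to 50 bases after a transcription start, are printed on the strand of the gene. The sequences are RefSeq's, on build GRCm38.p6 (mm10). Capitals mark each copy of the letters ACTACANNT, searched on both strands, with the 3 bases that follow it, so that a copy on the other strand ends in TGTAGT. The windows lie at chr10:81496314-81496613, minus strand (Ncln), chr4:156109748-156110047, plus strand (9430015G10Rik), chr2:154656776-154657075, plus strand (Chmp4b), chr4:149103892-149104191, plus strand (Dffa), chr12:79172409-79172708, minus strand (Vti1b) and chr11:95666707-95667006, plus strand (Phb).
Ncln: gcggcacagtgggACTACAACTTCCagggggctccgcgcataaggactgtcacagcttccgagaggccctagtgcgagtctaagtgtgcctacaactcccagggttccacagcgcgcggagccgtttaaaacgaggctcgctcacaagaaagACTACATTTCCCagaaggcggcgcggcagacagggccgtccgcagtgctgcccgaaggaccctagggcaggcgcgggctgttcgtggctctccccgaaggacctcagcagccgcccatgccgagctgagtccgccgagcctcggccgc
9430015G10Rik: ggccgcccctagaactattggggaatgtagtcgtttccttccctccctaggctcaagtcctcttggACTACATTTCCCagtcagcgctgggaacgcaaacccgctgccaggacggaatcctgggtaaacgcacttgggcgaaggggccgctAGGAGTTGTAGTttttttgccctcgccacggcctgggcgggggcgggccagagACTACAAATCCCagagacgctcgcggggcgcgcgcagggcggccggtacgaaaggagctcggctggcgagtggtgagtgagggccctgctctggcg
Chmp4b: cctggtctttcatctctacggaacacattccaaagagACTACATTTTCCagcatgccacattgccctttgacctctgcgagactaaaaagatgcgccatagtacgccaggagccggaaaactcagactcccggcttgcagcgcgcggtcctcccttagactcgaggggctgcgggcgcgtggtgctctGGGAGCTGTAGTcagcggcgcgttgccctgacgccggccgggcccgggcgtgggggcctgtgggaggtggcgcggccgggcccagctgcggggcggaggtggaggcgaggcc
Dffa: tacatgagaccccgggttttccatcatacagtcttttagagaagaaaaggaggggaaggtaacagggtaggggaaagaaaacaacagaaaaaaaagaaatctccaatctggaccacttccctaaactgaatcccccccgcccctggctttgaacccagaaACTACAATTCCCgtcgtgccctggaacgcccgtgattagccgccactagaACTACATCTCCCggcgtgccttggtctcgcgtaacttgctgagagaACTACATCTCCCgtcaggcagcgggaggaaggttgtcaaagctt
Vti1b: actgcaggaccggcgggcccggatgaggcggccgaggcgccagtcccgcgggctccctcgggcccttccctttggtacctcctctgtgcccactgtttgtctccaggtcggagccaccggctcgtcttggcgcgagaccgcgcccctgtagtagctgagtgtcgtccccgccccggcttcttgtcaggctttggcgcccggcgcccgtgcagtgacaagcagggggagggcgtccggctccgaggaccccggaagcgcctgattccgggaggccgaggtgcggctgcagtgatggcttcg
Phb: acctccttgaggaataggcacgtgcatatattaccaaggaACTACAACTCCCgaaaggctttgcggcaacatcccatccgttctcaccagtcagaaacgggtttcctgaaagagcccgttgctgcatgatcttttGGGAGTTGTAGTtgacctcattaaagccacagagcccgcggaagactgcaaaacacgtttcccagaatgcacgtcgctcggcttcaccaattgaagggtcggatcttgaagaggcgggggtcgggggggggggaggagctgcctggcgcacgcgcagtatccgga

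Of these promoters, 9430015G10Rik and Dffa held 3 copies, Ncln, Chmp4b and Phb held 2, and Vti1b held none, although its window has the shorter word ACTACA on the other strand (TGTAGT). Ncln, which encodes the endoplasmic reticulum protein nicalin, stood at 58.7 fold in H3.3WT cells and 56.8 fold in H3.3K27M cells. Fold here means how far the precipitated signal at a summit exceeded its local input background, as the authors' peak caller gave it. Both folds are given for a region, the H3.3WT value first, and no ratio between them is taken, because the depth of the libraries is unknown. 9430015G10Rik, a gene of unassigned function, had 70.2 and 49.0 fold. Chmp4b, of the ESCRT-III membrane scission machinery, had 44.7 and 49.8 fold, and Dffa, the inhibitor of the apoptotic DNase CAD, 47.4 and 43.1 fold. Phb, the mitochondrial scaffold protein prohibitin, had 49.8 and 39.3 fold. Vti1b, a SNARE of endosomes, had 40.2 and 45.5 fold without a copy of ACTACANNT. The H3.3WT summits of the 5 promoters with the element lay 13 bp (Dffa), 17 bp (9430015G10Rik), 18 bp (Phb), 39 bp (Ncln) and 64 bp (Chmp4b) from the nearest copy.

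Shorter stretches around a copy in 6 more strong regions with 2 or more copies show the element in other surroundings. They are taken from chr16:20535346-20535395, plus strand (Ap2m1, the adaptor subunit of clathrin-coated vesicles), chr15:102722175-102722224, minus strand (Calcoco1, a coactivator and autophagy receptor), chr2:77946391-77946440, minus strand (Cwc22, a splicing factor), chr14:20294616-20294665, plus strand (Nudt13, a nudix hydrolase), chr17:25985829-25985878, minus strand (Capn15, a calpain) and chr12:83597268-83597317, minus strand (Zfyve1, a FYVE domain protein of endoplasmic reticulum and Golgi).
Ap2m1: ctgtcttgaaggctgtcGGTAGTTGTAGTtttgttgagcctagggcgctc
Calcoco1: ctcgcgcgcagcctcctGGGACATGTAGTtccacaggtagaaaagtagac
Cwc22: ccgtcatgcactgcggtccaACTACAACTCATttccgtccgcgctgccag
Nudt13: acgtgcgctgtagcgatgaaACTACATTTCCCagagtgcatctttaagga
Capn15: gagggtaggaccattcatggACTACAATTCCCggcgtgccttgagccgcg
Zfyve1: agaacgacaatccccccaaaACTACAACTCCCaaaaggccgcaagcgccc

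These regions had folds of 33.6 and 56.2 (Ap2m1), 53.8 and 35.6 (Calcoco1), 30.1 and 55.3 (Cwc22), 39.1 and 33.8 (Nudt13), 28.7 and 38.5 (Capn15), and 27.9 and 40.3 (Zfyve1), in H3.3WT and H3.3K27M in turn. They ranked between 10 and 113 among the 5496 shared peaks in both lists. The copies shown for Ap2m1 and Calcoco1 lie on the other strand. Read from ACTACA onward, the copies of Calcoco1, Nudt13, Capn15 and Zfyve1 ended in CCC, and those of Ap2m1 and Cwc22 did not.

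ACTACANNT was chosen after the data were seen, as the recurring word of the strongest promoters, so its shares are descriptions of these libraries. Its first letters are those of the site of ZNF143 (STAF), a zinc finger activator of small nuclear RNA and housekeeping promoters, and the ZNF143 word ACTACAATT lies within it. Nothing in the lists shows which protein, if any, occupied it. Over all 21263 RefSeq promoters of protein-coding genes, 989 or 4.65% held the element. Among the 1606 regions whose summit fell in a promoter window, 287 or 17.9% held it (95% Wilson interval 16.1 to 19.8%, which covers counting error only). Promoters with no CBFA2T2 summit of either list within 1 kb held it in 2.62% of cases, and those of them that were CpG-rich in 0.647%. Shared peaks at several gene ends held it in 14.1%. At the end of a single gene, peaks of the H3.3WT list alone held it in 2.38% of 168 promoters and those of the H3.3K27M list alone in 4.05% of 420, without matching on fold.

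The element was most frequent where CBFA2T2 was most enriched. In 4 bins of equal size of the 1606 promoters by H3.3WT fold, from 2.67 to 5.52 fold up to 11.3 to 70.2 fold, its share was 5.72%, 11.5%, 18.7% and 35.6%. By H3.3K27M fold the bins had 5.97%, 11.0%, 19.5% and 35.1%. The bins of both lists hold the same promoters, and the element was picked from the strongest of them. Neither list is therefore a support for this order. Of the 100 strongest promoters, 51 held it in H3.3WT (95% interval 41.3 to 60.6%) and 47 in H3.3K27M (37.5 to 56.7%). The other promoters among the 100 strongest, that of Vti1b included, held no copy.

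**Figure D1:**
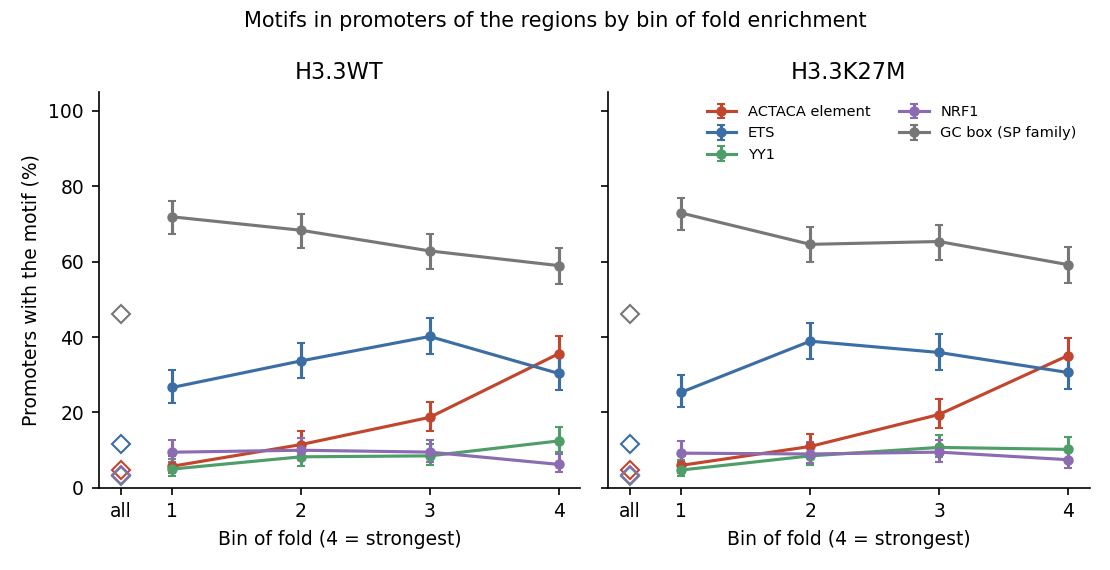
Share of promoters (percent, y axis) with 5 motifs in 4 equal bins of the 1606 regions by fold enrichment (x axis, 4 the strongest), for H3.3WT (left) and H3.3K27M (right). Bars are 95% Wilson intervals, diamonds the share over all 21263 promoters. The ACTACA element, picked from the strongest of these promoters, climbs from 5.72% to 35.6% and from 5.97% to 35.1%. The GC box goes down from 71.9% to 59.0% in H3.3WT.

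Fold also differed with the number of copies. The element was picked from the strongest of these promoters, so higher fold with more copies was partly set by that choice. The values are a description. Regions without a copy (1319) had a median of 7.08 fold in H3.3WT and 6.76 in H3.3K27M. With 1 copy (239 regions) the medians were 10.2 and 9.74 fold. With 2 copies (41 regions) they were 20.9 and 18.7 fold, and with 3 or more (7 regions) 32.1 and 30.6 fold. The groups overlapped: regions without a copy reached 55.8 fold in H3.3WT, at Ccdc124, and regions with 3 or more copies went down to 5.56 fold. Ranked among all 5496 shared peaks, the median region with 0, 1, 2 and 3 or more copies stood at 2591, 1384, 272 and 63 in H3.3WT and at 2715, 1461, 341 and 93 in H3.3K27M. Promoters with 2 or more copies were rare, 0.564% of all promoters, 0.104% of those without a summit nearby and 2.99% (48) of the regions, of which 39 fell in the strongest bin by H3.3WT fold.

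**Figure D2:**
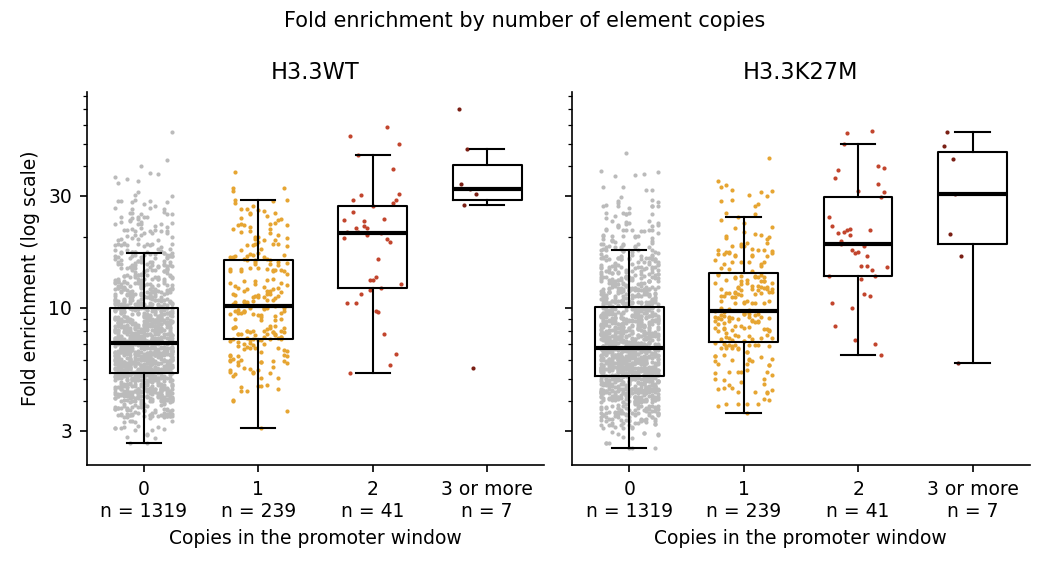
Fold enrichment (log scale) of the 1606 regions with the summit in a promoter window, by copies of the ACTACA element (x axis), in H3.3WT (left) and H3.3K27M (right). Each dot is a region, boxes span the quartiles with the median as a thick line and whiskers reach 1.5 box heights at most. Medians climb from 7.08 to 32.1 and from 6.76 to 30.6, and the groups overlap. The element was picked from the strongest of these regions.

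The element lay near the summits and mostly upstream of the start. The distance from summit to the nearest copy had a median of 37 bp in H3.3WT and 39 bp in H3.3K27M, with 61.3% of H3.3WT summits within 50 bp and 88.9% within 100 bp. The same summits lay a median of 53 bp from the transcription start, and 170 of 287 (59.2%) were nearer to the element than to the start. Where a promoter held several copies the nearest was taken, which favours the element. In the 1319 regions without the element, the H3.3WT summit lay a median of 43 bp from the start. The H3.3WT summit, the element and the start all lie in a window of 300 bases, so their distances are short by construction. The H3.3K27M summit was not held to the window, and its largest distance to the element was 1644 bp. Copies sat a median of 81 bp upstream of the start (−81, quartiles −130 and −45.25), 95.3% of 342 copies upstream, in a window with 250 of its 300 bases upstream, and 67.5% on the strand of the gene. Where a promoter held several, neighbouring copies were a median of 73 bp apart, and 27 of 55 neighbouring pairs had the same orientation.

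Bases outside the searched letters were shared as well. Of 342 copies, 291 (85.1%, interval 80.9 to 88.5%) were followed by CCC, against 24 of 372 copies (6.45%, interval 4.37 to 9.42%) in promoters with no summit nearby. Since the word was picked from the strongest of these promoters, the bases beside it were partly set by that choice. The promoters also differed in composition, with 72.4% of the regions CpG-rich against 25.8% of promoters with no summit nearby. The part of composition in the CCC share was not tested. The pair of free bases was TT in 24.0% of copies, AC in 20.8%, AT in 14.3% and AG in 9.94%. Regions with a copy followed by CCC (255) had medians of 11.4 and 11.5 fold, and those with other copies alone (32) had 10.1 and 8.46 fold.

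Several other promoter motifs were also more frequent in these regions than over all promoters. Each was searched on both strands of the same 300 bases. The ETS word CCGGAAG, bound by factors such as GABPA, was in 32.7% of the regions against 11.6% of all promoters, with 26.6%, 33.7%, 40.1% and 30.3% in the 4 bins by H3.3WT fold. AAGATGGC, the word of YY1, was in 8.53% against 3.05% and went from 4.98% to 12.4% over the bins by H3.3WT fold. Over the bins by H3.3K27M fold it had 4.73%, 8.48%, 10.7% and 10.2%. GCATGCGC, the word of NRF1, a regulator of nuclear genes for mitochondria, was in 8.78% against 3.52%, and the cAMP response element TGACGTCA in 5.92% against 2.23%. TCTCGCGAG, the word of BANP, was in 2.62% against 0.964%, and ACTACAATT in 3.05% against 0.508%. The GC box GGGCGG was in 65.5% against 46.2%, CACGTG, 1 form of the E-box CANNTG, in 13.3% against 7.84%, and CCAAT in 40.6% against 38.2%. Several of these words were above their share in all promoters at other peaks near gene ends too. The ETS word was in 39.2% of promoters at shared peaks of several gene ends. At the end of a single gene, it was in 25.6% for the H3.3WT list alone and 19.3% for the H3.3K27M list alone. In the same order the NRF1 word was in 6.33%, 8.93% and 8.1%, and the GC box in 64.4%, 72.6% and 72.4%. The YY1 word was in 10.2% at several ends, 3.57% in the H3.3WT list alone and 5% in the H3.3K27M list alone. The 3709 CpG-rich promoters with no summit nearby had the ETS word in 9.65%, the YY1 word in 1.83%, the NRF1 word in 4.80%, TGACGTCA in 2.24%, TCTCGCGAG in 0.917%, CACGTG in 10.2% and CCAAT in 33.4%, all below the regions. For the GC box the direction turned, with 82.7% in these promoters, above the 65.5% of the regions. Regions with the ETS word had medians of 7.91 and 7.39 fold, in H3.3WT and H3.3K27M in turn, beside 7.33 and 7.35 without it. Those with the YY1 word had 8.87 and 8.86 fold, beside 7.41 and 7.25 without it. With the ACTACA element the medians were 11.2 and 11.3 fold. That element was picked from the strongest of these promoters, so its medians cannot be weighed against those of the other words. The 58 regions with both the element and the ETS word had 11.2 and 10.5 fold, and the 229 with the element alone 11.3 and 11.3 fold. The 642 regions (39.98%) with none of the element, ETS, YY1, NRF1 or cAMP words had 6.58 and 6.37 fold.

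To set these words beside the element, the strongest region holding each is printed, with the motif in capitals, on the strand of the gene, from RefSeq. In Mapkapk5 the capitals cover the word on both strands, which overlap. The stretches are chr12:79172437-79172476 for ETS (Vti1b), chr8:70873541-70873580 for YY1 (Ccdc124, a ribosome hibernation factor), chr5:121546014-121546053 for NRF1 (Mapkapk5, a kinase downstream of p38) and chr6:21949510-21949549 for the cAMP word (Ing3, a subunit of the NuA4 acetyltransferase).
Vti1b: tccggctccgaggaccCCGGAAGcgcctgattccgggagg
Ccdc124: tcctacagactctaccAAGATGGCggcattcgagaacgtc
Mapkapk5: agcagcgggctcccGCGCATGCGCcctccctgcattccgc
Ing3: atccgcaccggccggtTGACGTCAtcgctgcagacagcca

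Ccdc124 had 55.8 and 37.8 fold and Mapkapk5 28.3 and 28.4 fold, both without the element. Ing3 had 26.3 and 28.6 fold and held 1 copy of the element in addition.

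Motifs of DNA-binding factors known for the MTG family had lower shares in the regions than over all promoters, but not in each case than in CpG-rich ones. The E-box CANNTG was in 57.6% of the regions against 69.02% of all promoters, and CAGCTG, the form of it preferred by E-proteins such as TCF3 and TCF12, in 12.1% against 15.6%. TGTGGT, the word of RUNX, a factor fused to the family member ETO in leukaemia, was in 13.1% against 14.97% and the GFI1 word AAATCACNG in 0.498% against 0.724%. The TATA box TATAAA was in 5.54% against 12.6%. In the CpG-rich promoters with no summit nearby, CANNTG was in 60.2%, CAGCTG in 15.3%, TGTGGT in 7.87%, AAATCACNG in 0.350% and TATAAA in 4.34%, so the shares of the RUNX and TATA words, and of the GFI1 word on 8 regions, were higher in the regions than in these promoters. Base composition moved with these shares: the regions had a median GC content of 60.3% against 56.3% over all promoters, and 72.4% of them were CpG-rich against 41.0% (GC of at least 55% and an observed over expected CpG ratio of at least 0.6). GC content was lowest where fold was highest, with medians of 63.7%, 61.0%, 59.3% and 57.8% in the 4 bins by H3.3WT fold. The part of base composition in the motif shares was not tested beyond the shares in CpG-rich promoters without a summit.

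At the gene, CBFA2T2 summits lay mostly at the start of transcription. The choice of regions did not use strand, which RefSeq's promoter table gave for the genes of 2504 regions (82.4%). Of these, 2461 or 98.3% (95% interval 97.7 to 98.7%) had the start end within 1 kb, 27 of them with the other end of a short gene as well. Over the 2400 summits within 1 kb of a listed start, the median offset was 20 bp upstream (−20, quartiles −93 and 50.25), 37.6% lay within 50 bp, 61.1% within 100 bp and 87.6% within 250 bp. Upstream summits made up 58.7%.

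**Figure D3:**
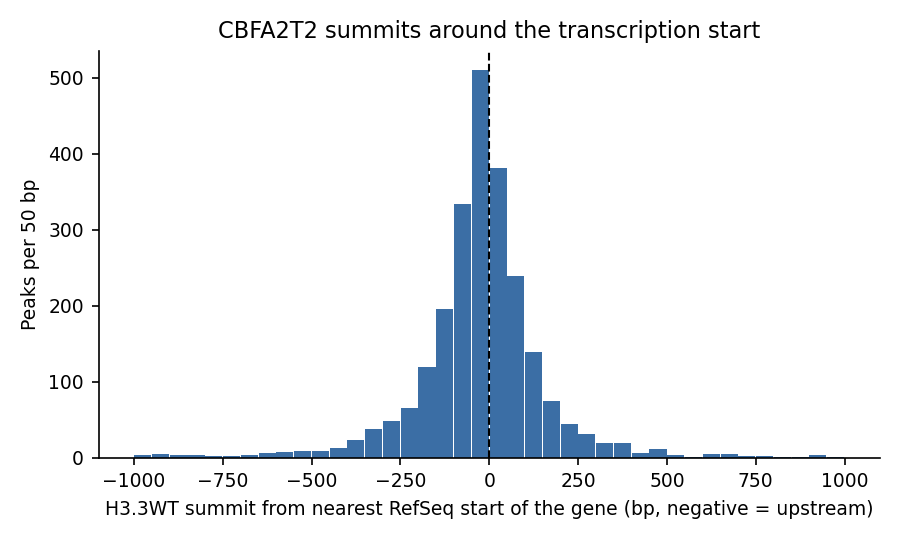
Number of regions (y axis, per 50 bp) by position of the H3.3WT summit relative to the nearest RefSeq start of the gene (x axis, bp, negative upstream), for the 2400 summits within 1 kb. The summits gather around the start, with a median of −20 bp and 61.1% within 100 bp.

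In 43 regions (1.72%) the end that chose the region was the finish of the gene. Their median folds, 6.28 and 6.40, were near those of the regions at starts, 6.98 and 6.76. Rtn2, a reticulon of the endoplasmic reticulum, led them with 21.7 and 16.0 fold, followed by Ethe1, the mitochondrial persulfide dioxygenase, with 17.1 and 11.6, Sec14l2, a lipid transfer protein, with 17.1 and 14.4, Pnpla3, a lipase of lipid droplets, with 16.9 and 11.5, and Bad, a pro-apoptotic BCL2 relative, with 15.4 and 13.0. In 11 of the 43 an annotated end of a non-coding gene lay within 1 kb as well. Tmem107, at 11.1 and 17.9 fold, had the U8 snoRNA gene Snord118 there, and Ctc1, Per1 and Mrpl58 had tRNA genes. The gene Atf4, the transcription factor of the integrated stress response, had a region at each end, with 22.1 and 11.7 fold at its start and 4.65 and 5.41 fold at its finish. Tex2 was the gene with most regions, 3, all under 5 fold in H3.3WT, and 22 genes had more than 1.

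Ends of non-coding genes lay within 1 kb of 537 regions (17.7%), mostly long non-coding RNAs (435, median 6.52 and 6.71 fold). Regions near a snoRNA gene (25) had medians of 10.2 and 10.0 fold and those near a snRNA gene (13) 9.60 and 9.48 fold, above the 6.95 and 6.80 of all 3039. Those near a tRNA gene (20) had 5.89 and 5.21 fold. Whether such a peak belongs to the coding or the non-coding gene cannot be told apart.

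Enrichment in the set ran from 2.67 to 86.6 fold in H3.3WT (median 6.95, quartiles 5.18 and 10.3) and from 2.40 to 72.9 fold in H3.3K27M (median 6.80, quartiles 4.99 and 10.3). Shared peaks at several gene ends had medians of 7.88 and 7.84 fold, those inside genes 6.42 and 6.19 and intergenic ones 6.02 and 5.66. The quartiles of all these classes overlapped. The −log10 q of the regions had medians of 12.8 and 15.1, and 32 regions in H3.3WT and 21 in H3.3K27M lay under 2, near the limit of the lists.

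The strongest region was that of Gsk3a, a glycogen synthase kinase of Wnt and insulin signalling, with 86.6 and 57.6 fold. Its summit lay 288 bp upstream of the start, outside the window that was searched for the element, and that window held no copy. Prcc, a nuclear protein known from renal carcinoma fusions, had 64.8 and 72.9 fold, the highest value in H3.3K27M. Its window held 1 copy, and its summit lay outside the window, 262 bp upstream of the start. Kmt2a, a histone H3 lysine methyltransferase, had 42.5 and 21.6 fold, with the summit in the window and no copy of the element. In H3.3K27M the leading regions also included Btrc, the F-box protein that marks beta-catenin for degradation, with 31.1 and 50.4 fold, Tsnaxip1 with 29.6 and 50.2 fold and the splicing helicase gene Ddx23 with 30.4 and 47.8 fold. Each of these leading regions was ranked between 3 and 240 among the 5496 shared peaks in both lists.

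The libraries kept the order of the regions in part. The folds of the libraries had a Spearman rho of 0.674 over the 3039 regions, beside 0.679 over all shared peaks, as a description with no p because the peaks of a library share its depth and input. With the 3039 regions in 4 equal bins by fold in each library, 534 of the 760 regions in the top bin of H3.3WT (70.3%) were in the top bin of H3.3K27M and 19 in its bottom bin. Summits called in each library lay a median of 43 bp apart, 56.3% within 50 bp (interval 54.5 to 58.1%) and 78.2% within 100 bp. Stronger regions had closer summits, with medians of 84.5, 46, 39 and 25 bp from the lowest to the highest bin of H3.3WT fold.

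**Figure D4:**
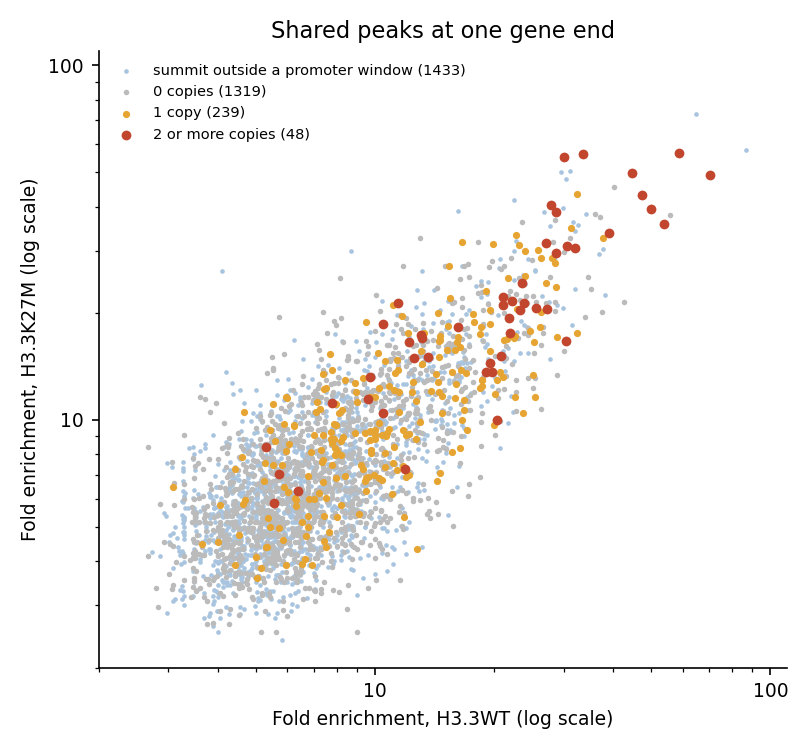
Fold enrichment of the 3039 regions in H3.3WT (x axis) and H3.3K27M (y axis), both on a log scale, 1 dot a region, coloured by copies of the ACTACA element where the summit lies in a promoter window. The dots follow the diagonal with a Spearman rho of 0.674, and the 48 regions with 2 or more copies gather towards the upper right.

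Ranks shifted between the libraries, and regions with the largest shifts are named here. Ranks were taken over the same 5496 shared peaks. Mfsd11, a membrane transporter family gene, stood at rank 4979 in H3.3WT with 4.10 fold and at rank 144 in H3.3K27M with 26.3 fold, but there the overlapping H3.3K27M peak had its summit 1190 bp away, so the values belong to different points. Slc30a9, a zinc transporter, had 3.62 and 11.6 fold and the tankyrase gene Tnks 4.20 and 13.7. Ythdf1 and Mettl16, a reader and a writer of m6A in RNA, had 3.71 and 11.5 fold and 3.83 and 10.6 fold. Prpf8, the core of the spliceosome, had 4.36 and 12.7 fold, the rRNA methyltransferase gene Nsun5 4.38 and 11.8, Chac1, a glutathione-degrading enzyme of the ATF4 response, 3.97 and 11.2, and Ring1, a ubiquitin ligase of Polycomb complex PRC1, 3.29 and 9.06.

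In the other direction Zfand3 had rank 1105 with 11.6 fold in H3.3WT and rank 5186 with 3.54 fold in H3.3K27M. Serinc1, a serine incorporator family gene, had 10.7 and 3.75 fold, Paxip1, of the DNA damage response and the MLL3/4 complexes, 10.0 and 3.54, and Borcs6, of the lysosome positioning complex BORC, 8.998 and 2.53. Gdi2, a Rab GTPase inhibitor, had 9.60 and 3.36 fold, Rbm41 11.1 and 3.92, Mindy1, a deubiquitinase, 13.1 and 4.37, Zfp334 12.8 and 4.33, Rprd2 11.997 and 4.18 and Klhl8 10.0 and 3.69. On the weaker side, −log10 q ran from 3.26 (Mfsd11) to 9.32 (Prpf8) in H3.3WT and from 2.19 (Borcs6) to 10.3 (Rprd2) in H3.3K27M. The medians of all regions were 12.8 and 15.1. After Mfsd11, the summits of a pair lay farthest apart at Paxip1 (181 bp), Slc30a9 (173 bp) and Rprd2 (143 bp). These genes, Mfsd11 to Klhl8, were picked as the extremes of 3039 regions in single libraries, so their order between genotypes is a description of these libraries.

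Genes of protein synthesis, splicing and protein turnover held a region far above the background share. Of 81 cytosolic ribosomal protein genes, 58 (71.6%, interval 61.0 to 80.3%) had one, against 13.8% of all protein-coding genes, with medians of 9.85 and 9.05 fold, and 15 more had a shared peak that reached several gene ends. Rpl34 had 31.3 and 34.7 fold, Rps12 24.3 and 21.4 and Rpl27 18.7 and 13.1. Of their 29 promoters with a summit in the window 3 held the element, beside 17.9% over all 1606 regions. Of 78 mitochondrial ribosomal protein genes 30 had a region, led by Mrpl11 with 28.6 and 36.7 fold, and 30 more had one at several ends. Proteasome subunits had 21 of 39, led by Psmb5, a catalytic subunit, with 21.95 and 23.1 fold, and splicing factors 33 of 61, among them Sf3b5 with 19.2 and 22.7 fold and Snrpc with 18.8 and 20.4. Aminoacyl-tRNA synthetases had 14 of 37, led by the leucine enzyme gene Lars with 32.0 and 23.5 fold.

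**Figure D5:**
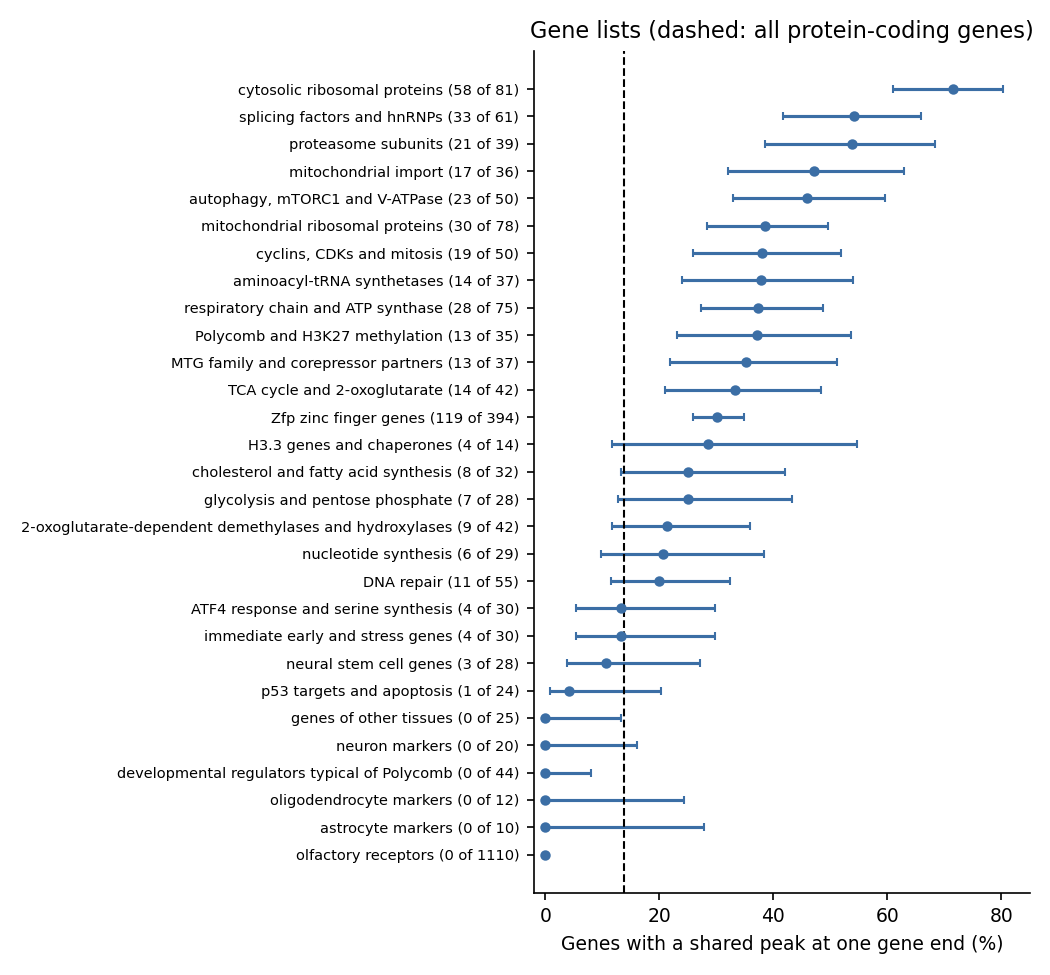
Share of each gene list with a region of the set (x axis, percent), with 95% Wilson intervals and the counts beside each name; the dashed line is the share of all 21887 protein-coding genes. Cytosolic ribosomal protein genes stand highest at 71.6% and 6 lists, olfactory receptors among them, stand at 0.

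Mitochondrial and lysosomal genes stood above the background as well. Mitochondrial import had 17 of 36 genes. Those with the highest H3.3WT −log10 q were Timm22, the carrier translocase, with 21.2 and 16.8 fold, Hspa9, the matrix HSP70, with 15.4 and 19.0 and Tomm40, the outer membrane channel, with 20.8 and 9.96. The respiratory chain and ATP synthase had 28 of 75, with Atp5o at 22.7 and 33.3 fold, Cox7c at 19.6 and 18.7 and Ndufa3 at 18.4 and 12.3, and these 3 promoters held the element. Over the list 4 of the 20 promoters with a summit in the window held it, near the share of all regions. Autophagy, mTORC1 and V-ATPase genes had 23 of 50, among them the mTORC1 subunit gene Rptor with 24.3 and 17.7 fold and Tfeb, the master regulator of lysosomal genes, with 22.5 and 17.0. The TCA cycle and 2-oxoglutarate list had 14 of 42, with the succinyl-CoA synthetase gene Suclg1 at 22.1 and 28.7 fold. Glycolysis and the pentose phosphate pathway had 7 of 28 with a median of 4.17 and 5.10 fold, cholesterol and fatty acid synthesis 8 of 32 with 4.99 and 5.04, and nucleotide synthesis 6 of 29. The intervals of these last 3 lists reached down to 12.7%, 13.3% and 9.85%, below 13.8%. The ATF4 list, with 4 of 30, stood at the background.

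Of 50 cell cycle genes 19 had a region, among them Cdk9, the kinase of P-TEFb, with 25.4 and 11.6 fold and Bub1b, of the spindle checkpoint, with 11.1 and 21.1. DNA repair had 11 of 55, at medians of 5.31 and 5.15 fold, and 17 more had a shared peak at several gene ends. Among the MTG family and its corepressor partners 13 of 37 had a region, at low medians of 5.73 and 4.38 fold. None of these 13 was a gene of the MTG family itself. The E-protein gene Tcf3 had 10.4 and 4.22 fold, the deacetylase gene Hdac2 8.57 and 3.44 and Mbd3 of the NuRD complex 7.35 and 4.69. The demethylase gene Kdm1a had 3.09 and 3.09. The NCoR complex genes Tbl1x and Tbl1xr1 had 6.47 and 11.6 and 5.01 and 9.49, and Gatad2b of NuRD 5.73 and 8.82. Polycomb and H3K27 methylation genes had 13 of 35, with the PRC2 cofactor gene Jarid2 at 9.60 and 11.5 fold and 2 copies of the element, Asxl1 at 11.4 and 14.8, Eed at 6.78 and 5.69, Suz12 at 5.47 and 7.15, and Ezh2, the PRC2 methyltransferase, at 3.24 and 4.28. The H3.3WT −log10 q of Ezh2 was 1.53, near the lowest of that list, 1.33. Demethylases and hydroxylases that use 2-oxoglutarate had 9 of 42, with Alkbh3 at 12.4 and 12.4 fold and Kdm2b at 6.90 and 5.95. Of 14 genes of H3.3 and its chaperones 4 had a region, with the chaperone gene Daxx at 9.81 and 13.4 fold. The intervals of the repair, 2-oxoglutarate and H3.3 lists reached down to 11.6%, 11.7% and 11.7%, below the background.

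Few or no genes of the lists that mark cell identity held a region. Of 28 neural stem cell genes 3 did (10.7%, interval 3.71 to 27.2%), a share near the background: Sox1, a neuroectoderm transcription factor, had 6.15 and 3.58 fold, Gli3, of Hedgehog signalling, 3.83 and 6.61 and the receptor gene Notch2 3.52 and 3.75. None of 20 neuron, 10 astrocyte, 12 oligodendrocyte or 25 other tissue markers, of 44 developmental regulators that Polycomb typically holds or of 1110 olfactory receptor genes had one. For the neuron, astrocyte and oligodendrocyte lists the Wilson intervals reached 16.1%, 27.8% and 24.2%, past the background of 13.8%, so these counts do not set them apart from it. The intervals reached 13.3% for the 25 genes of other tissues, 8.03% for the 44 developmental regulators and 0.345% for the olfactory receptors. Immediate early and stress genes had 4 of 30 (13.3%), near the background, among them Fos with 8.08 and 9.62 fold. The p53 targets and apoptosis genes had 1 of 24 (4.17%), Bax, with 9.38 and 13.8 fold. The interval of that list reached 20.2%, past the background.

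The Zfp genes, which encode zinc finger proteins, were the group with the largest number of regions holding the element. Of 394 Zfp genes 119 (30.2%, interval 25.9 to 34.9%) had a region. In 73 of them the summit fell in a promoter window, and 37 of these 73 (50.7%, interval 39.5 to 61.8%) held the element, against 16.3% of the 1533 other regions. Zfp promoters as a class held it more often than the 4.65% of all promoters, in 17.0% of 399, and in 5.73% of the 157 without a summit nearby. Zfp regions with the element had medians of 10.0 and 9.05 fold and those without 6.87 and 7.48. Here too, higher fold with the element was partly set by picking it from the strongest promoters of the whole set. Zfp112, with 3 copies, had 30.4 and 16.7 fold, Zfp317, with 2, 23.9 and 21.3, and Zfp933, with 1, 28.9 and 17.1. Zfp384 reached 31.2 and 32.7 fold with no copy. Zfp143, the mouse gene of ZNF143 itself, had 22.7 and 10.6 fold with no copy of these letters in its window. Zfp genes arose by duplication and share sequence, so their promoters are not independent of each other, and reads may be split among near-identical copies.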

How the data were processed

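CBFA2T2 ChIP-seq peak lists of 2 libraries, 1 per genotype, were used; libraries were grouped by labelled genotype and antibody. Trim Galore, MACS2 and build mm10 are named in the submitters' processing notes without versions, and the peak names in the deposited files show that each ChIP was called against an input. The aligner, duplicate handling and caller settings are not given in the sources used here. The authors' fold enrichment, a ratio of ChIP signal at the summit over local background, was used unchanged to describe and rank peaks within a list, as were the deposited −log10 p and q values. The deposited score matched 10 times −log10 q, without decimals, in 100% of peaks and was not used. The smallest deposited −log10 q was 1.33 in H3.3WT and 1.31 in H3.3K27M, so weaker sites were removed before deposit, and depth is unknown.

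Gene spans and promoter sequences were RefSeq's (GRCm38.p6, the assembly of mm10), with 17492 of 21887 genes in the promoter table. Shared peaks overlapped by at least 1 bp, and summits were assigned to gene ends within 1000 bp. Motifs were matched by letters on both strands. Shares carry 95% Wilson intervals. Scripts ran in Python 3.11.15 with pandas 2.3.3, numpy 2.4.6 and scipy 1.17.1 and were tested on simulated data. The regions, 29 gene lists and 21 first motifs were chosen with earlier results of these data known, and the ACTACA element after its promoters were seen. Named genes are the 10 highest by fold in each list, the 10 most in favour of each list by rank, up to 3 of each gene list with the highest H3.3WT −log10 q, the printed promoters, the regions nearest the 1 kb limit and genes with several regions. Some genes picked by this rule are not reported here. Other list members, the regions at gene finishes, those of the Zfp series and the printed stretches with further copies were picked with their values known. Alternatives were other overlaps, thresholds, windows and motif letters.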

Additional observations from a re-analysis of the deposited data

How the results depend on the processing

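No paired analysis was possible because each genotype had 1 library. The number of regions and genes stayed within 1.5 times the main count except with peaks of at least 5 fold, which left 1954 regions at 1950 genes. Median folds in H3.3WT and H3.3K27M were 7.24 and 7.03 with 50% reciprocal overlap, 7.88 and 7.66 with −log10 q of at least 5, and 8.72 and 8.82 with at least 5 fold. These filters remove weak peaks by construction. With the same number of peaks taken from both lists the medians were 7.14 and 7.10. The share of pairs with summits within 50 bp was 59.2%, 62.4% and 67.1% under the first 3 of these settings. A 500 bp window put 99.1% of regions at the start. The share of promoters with the element was 20.2% with −log10 q of at least 5, 22.8% with at least 5 fold, 24.4% with the letters ACTACA alone and 13.96% with summits up to 1 kb from the start. In the strongest bin of fold it was 42.8% with ACTACA alone and 29.7% with summits up to 1 kb away, and the median H3.3WT fold with ACTACA alone was 10.0. The alternatives on the element were chosen after seeing the data. Peaks were called from 1 library per genotype at unknown depth, so a missing weak peak does not show that CBFA2T2 was absent.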

Other observations

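The regions were spread over all chromosomes but unevenly per gene. Chromosome 5 had regions at 18.6% of its protein-coding genes and chromosome 14 at 9.28%. Chromosome X had them at 66 of 966 genes (6.83%) and chromosome Y at 1 of 256. Chromosome 7, which carries many Zfp and olfactory receptor genes, had 10.4% with the highest autosomal median of H3.3WT fold, 8.57. Genes with a region, counted once per region, had a median length of 21413 bp against 17169 bp over all protein-coding genes.

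Lamp1, a lysosomal membrane protein gene, was the strongest region with the BANP word TCTCGCGAG, with 35.3 and 23.5 fold in the H3.3WT and H3.3K27M lists, without the element. Regions with that word had medians of 7.42 and 6.89 fold, near those of the regions without it, 7.49 and 7.38.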
